A study of Homo sapiens with 32 samples.

Results

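Interferon-stimulated genes (ISGs) were examined across Ewing sarcoma cells that differ in cohesin or Polycomb subunits. A list of 54 gene symbols known for their response to interferon was looked up in the deposited count tables, and all 54 were found among the 28278 symbols listed there. The same 54 genes were found by their Ensembl identifiers among the 60199 genes of the knockdown table. The list was divided into sensors of foreign nucleic acid (7 genes), the ISG15 conjugation system (5 genes), transcription factors (4 genes), immunoproteasome subunits (3 genes), a PARP and DTX3L group (5 genes) and effectors (30 genes). The list and its branches were chosen with earlier results of these data known. Shares of members set beside all genes therefore describe this list and are not an independent test.

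Interferons are secreted when a cell detects viral nucleic acid, and their receptors signal through JAK kinases to transcription factors that include STAT2 and IRF9. A complex that holds both of these binds the interferon-stimulated response element (ISRE) in the promoters of ISGs. Many ISGs are also transcribed at a basal level in cells that have met no virus, and some of them encode the sensors and transcription factors of the pathway itself.

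The study measured RNA in A673 cells, an Ewing sarcoma line that carries the EWS::FLI1 fusion, with and without STAG2, one of the alternative STAG subunits of cohesin. A clone of A673 with doxycycline-inducible Cas9 at the AAVS1 locus (WT clone) served with the parental line as control, and every knockout (KO) clone was derived from that single WT clone. STAG2 KO clones were sequenced in experiments 1 and 2, KO clones of EZH2 and SUZ12, subunits of Polycomb Repressive Complex 2 (PRC2), in experiment 2, and clones with KO of STAG1, the other STAG subunit, in experiment 3. Experiment 4 compared A673 cells treated with siRNA against STAG2 (siSTAG2) with mock transfected cells (siC), so that the loss of STAG2 and the presence of any siRNA cannot be told apart, and SK-N-MC and A4573 cells were each sequenced as an isogenic pair. The comparison of STAG2 KO used 5 KO libraries and 6 controls, 3 from each experiment (2 of the WT clone and 1 of the parental line). EZH2 KO and SUZ12 KO had 3 clones each, set against the 3 controls of experiment 2. STAG1 KO had 3 libraries and 2 controls, and the knockdown had 3 samples per arm. SK-N-MC cells were compared with their STAG2 KO derivative, and A4573 cells, which lack STAG2, with a derivative in which STAG2 was restored by knock-in (KI), with 1 library per arm. A KO clone is the progeny of 1 edited cell, so the difference of a single clone from its control and the effect of the edited gene cannot be told apart. Nothing in the labels says whether the libraries of the WT clone came from separate cultures, so the p-values measure only the spread between these samples, which may be technical. In such bulk samples, fewer cells that express a gene and less RNA per cell cannot be told apart.

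Levels are given as CPM, counts relative to a library total that was scaled by edgeR's TMM method. STAG2 was at 256 to 361 CPM in the 6 controls of experiments 1 and 2 and at 42.4 to 69.4 CPM in 4 of the 5 STAG2 KO libraries. The KO library in column 24 of the experiment 1 table held 184 CPM of STAG2. EZH2 fell from 172 to 194 CPM in controls to 28.4 to 55.3 CPM in EZH2 KO clones, and SUZ12 from 60.3 to 67.1 CPM to 11.3 to 20.6 CPM in SUZ12 KO clones. STAG1 was at 57.8 and 69.6 CPM in its controls, and at 61.5, 15.1 and 33.2 CPM in the STAG1 KO libraries of columns 1, 5 and 7, so the library of column 1 did not stand apart from the controls in this transcript. In the knockdown, STAG2 was at 992 to 1090 normalised reads in siC and 144 to 180 in siSTAG2. In the isogenic pairs, STAG2 was at 281 CPM in SK-N-MC cells and 179 CPM in the KO derivative, and at 32.32 CPM in A4573 cells and 85.2 CPM after knock-in, so the libraries called without STAG2 still held its transcript. Of 8 Ewing sarcoma markers, NKX2-2, NR0B1, PRKCB, STEAP1, LIPI, FLI1 and EWSR1 were detected in each of the 26 count libraries, while CD99 was listed at 0 in all of them. In the knockdown of A673 cells, CD99 was at 5944 to 6707 normalised reads in siC and 3723 to 3908 in siSTAG2. The 0 in the count libraries therefore cannot be read as absence of CD99 from A673 cells, and its cause was not tested. Totals were 15734628 to 20663679 counts in the A673 KO and control libraries and 29322507 to 32261248 in the isogenic pairs.

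The ISRE is the sequence that most ISG promoters share, so the promoters of members were searched for its core, GAAANNGAAA, on both strands. RefSeq promoter windows of GRCh38.p14, from 250 bases before to 50 bases after a transcript start, were at hand for 44 of the 54 members. The core was present in 31 of these 44 (70.5%) and in 4.38% of all 27305 genes with such windows (3.57% of all 35116 windows). The shorter gamma-activated sequence, TTCNNNGAA, was present in 13 of the 44 (29.5%) and in 9.38% of all genes (7.66% of windows). Matches were counted for each motif on its own, so the same bases may count for both. The following 30-base windows are written 5′ to 3′ on the strand of the match with the core in capitals. Where a promoter held more matches, only the one nearest the transcript start is capitalised. In ISG15 and TRIM21 another match overlaps it within the window and is partly in lower case. They come from members that fell in STAG2 KO cells (below) and held a match, so the capitals are alike because of the search.
DTX3L and PARP9 (1 shared site, chr3:122564322-122564351, + strand): ccagggaagcGAAACTGAAActttgcgccc
OAS3 (chr12:112938452-112938481, + strand): agccgggcggGAAAACGAAAccagaaatcc
PARP12 (chr7:140062942-140062971, + strand): ggcgggaaacGAAACCGAAAgcggccccgg
IFITM1 (chr11:314024-314053, + strand): acacttctgaGAAACTGAAAcgacagggga
IFITM3 (chr11:320876-320905, - strand): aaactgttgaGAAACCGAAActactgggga
LGALS3BP (chr17:78979962-78979991, - strand): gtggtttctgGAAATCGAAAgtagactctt
TRIM21 (chr11:4393666-4393695, - strand): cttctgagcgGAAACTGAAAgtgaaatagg
Members that were tested and not called in STAG2 KO cells held the same core, and 4 of them are shown for comparison.
ISG15 (chr1:1013380-1013409, + strand): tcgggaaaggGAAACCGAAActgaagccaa
IFIT5 (chr10:89414554-89414583, - strand): cgagcgctcaGAAACTGAAActtaagaaat
EIF2AK2 (chr2:37156967-37156996, - strand): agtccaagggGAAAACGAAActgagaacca
PLSCR1 (chr3:146544667-146544696, - strand): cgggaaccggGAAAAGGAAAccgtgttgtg
The core was thus found among members called and not called alike. It was present in 8 of 10 promoters of the members that fell, with OAS1 and IRF1 as the exceptions, and in 17 of 24 promoters of the members that were tested and not called. The latter include BST2 and PSMB8, which were low in most STAG2 KO libraries (below), so these shares do not compare fallen with unchanged members. A match describes these letters only.

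In STAG2 KO cells, 40 of the 54 members had enough reads to be tested. Of these, 12 fell, none rose and 28 were not called, with edgeR's quasi-likelihood test at a Benjamini-Hochberg adjusted p under 0.05 over 13574 genes. The members that fell were 30% of those tested, beside 5.76% of all genes tested that fell. Because the list was chosen with earlier results known, this share and the branch counts below are not independent evidence. In the other direction, 6.67% of all genes tested rose. The median log2 fold change (log2FC) of the members was −1.04, and that of all genes was 0.04. The call count depended on 1 library, clone 5 of experiment 2. Without it, 26 members were called, 24 lower and 2 higher (PLSCR1 and IFI16), beside 14.7% of all genes lower and 14.9% higher in the same fit, and the median was −1.57. Of all removals of 1 library, that of clone 5 gave the most calls. The range was 10 to 26. By branch, 4 of 5 tested genes of the PARP and DTX3L group fell, 2 of 4 sensors, 2 of 4 transcription factors, 4 of 22 effectors, and neither the 3 tested genes of the ISG15 system nor the 2 of the immunoproteasome passed the test. At an unadjusted p under 0.05, 20 of the 40 members passed, beside 26.6% of all genes, but 0 of these last branches. DESeq2 called 17 of 46 members, 15 lower and 2 higher, but the share of all genes it called was not counted. In experiment 2 alone IFITM3 was the only member called, beside 1.86% of all genes lower and 1.83% higher. In experiment 1 alone 21 members were called lower and 1 higher, beside 13.9% and 12% of all genes.

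**Figure D1:**
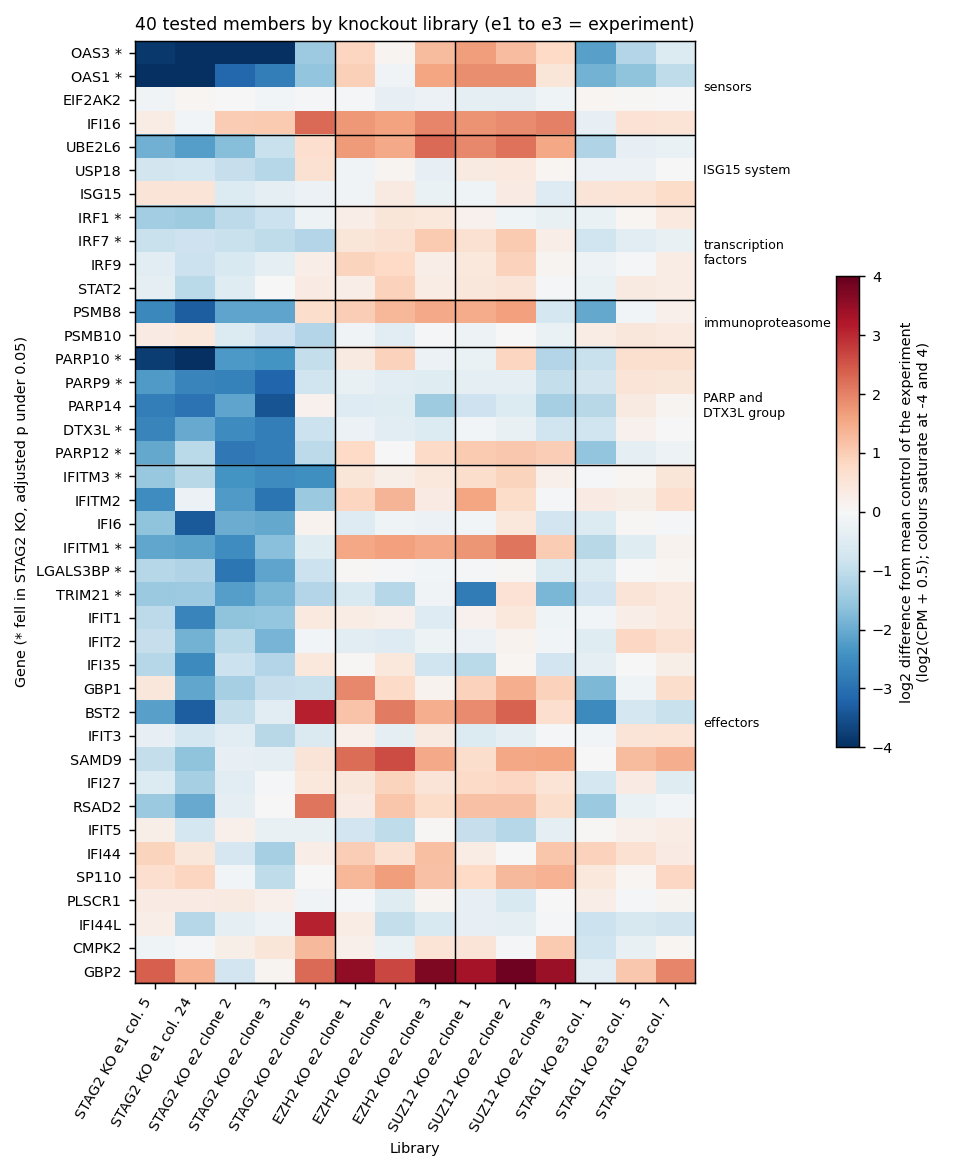
Log2 difference of each tested ISG (rows, by branch) from the mean control of its experiment in each A673 KO library (columns), on log2(CPM + 0.5), with colours saturating at −4 and 4. The 4 columns of STAG2 KO libraries at the left are blue for most of the 40 members, while clone 5 of experiment 2 is red for BST2 and IFI44L, and the EZH2 and SUZ12 KO clones are red for GBP2, IFI16 and SP110.

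Among the sensors, OAS1 and OAS3 had the largest falls. Both encode oligoadenylate synthetases, which respond to viral RNA by making the activator of RNase L. OAS1 (chr12:112905856-112933219) was at 12.1, 11 and 13.8 CPM in the controls of experiment 1 and at 0.0579 and 0.0566 CPM in the KO libraries. In experiment 2 it was at 4.28, 4.11 and 3.46 CPM in controls and at 0, 0.158 and 0.998 CPM in clones 2, 3 and 5. All 5 KO libraries lay below all 6 controls, and clone 5 was the highest of them. The log2FC of OAS1 was −4.59 (SE 0.94, adjusted p = 0.0092). In experiment 1, where each KO library held 1 read of OAS1, the gene was at least 70.9-fold lower than in controls, against a floor of 3 reads per library. OAS3 (chr12:112938051-112976460), its neighbour, was at 73.6, 70.7 and 92.4 CPM in controls and 4.98 and 1.98 CPM in KO libraries of experiment 1. In experiment 2 it was at 24, 23.8 and 44.4 CPM in controls and 0.50, 0.951 and 10.4 CPM in clones 2, 3 and 5. The groups did not overlap, and the log2FC was −3.55 (SE 0.73, adjusted p = 0.0092). IFIH1, the sensor MDA5, had too few reads to be tested over both experiments, with 0 counts in 4 of the 5 KO libraries and 5 counts in clone 5. In experiment 1 it was at least 10.4-fold lower in KO cells. EIF2AK2, the kinase PKR, had a log2FC of −0.00 (adjusted p = 0.99). IFI16, a DNA sensor, was at 85.6, 90.0 and 63.9 CPM in controls and 96.3 and 73.6 CPM in KO libraries of experiment 1, which overlapped. In experiment 2 it was at 38.0, 43.4 and 51.5 CPM in controls and at 89.8, 90.5 and 215 CPM in clones 2, 3 and 5, all above the controls, and over both experiments its log2FC of 0.99 did not pass the test (adjusted p = 0.091).

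The transcription factors split into a pair that fell and a pair that was not called. IRF7, the factor that amplifies interferon production, was at 11.9, 11.8 and 6.83 CPM in controls and 5.04 and 5.32 CPM in KO libraries of experiment 1. In experiment 2 it was at 8.04, 5.39 and 6.47 CPM in controls and 3.33, 3.01 and 2.63 CPM in clones 2, 3 and 5. No KO library reached a control, clone 5 included, and IRF7 (chr11:612553-615983) had a log2FC of −1.03 (SE 0.21, adjusted p = 0.0094), although in each experiment on its own it missed the threshold (adjusted p 0.067 and 0.089). IRF1, an activator of basal ISG transcription that also drives antigen presentation genes, was at 6.13, 4.61 and 2.82 CPM in controls and 1.33 and 1.30 CPM in KO libraries of experiment 1, and at 3.82, 3.59 and 3.12 CPM against 1.44, 1.69 and 2.94 CPM in experiment 2. Clone 5 lay below the controls of its own experiment, though above the parental line of experiment 1. The log2FC of IRF1 (chr5:132440440-132508719) was −1.16 (SE 0.34, adjusted p = 0.045), and the call was lost in 12 of 21 alternative settings, 8 of them the removal of 1 library (any STAG2 KO library other than clone 5, or any WT clone library), with adjusted p from 0.053 to 0.31. IRF1 shares exonic bases with IRF1-AS1 on the opposite strand, and reads of the pair cannot be told apart in these unstranded libraries. STAT2 and IRF9, which belong to the ISRE-binding complex, had log2FC values of −0.27 (adjusted p = 0.44) and −0.38 (adjusted p = 0.34). STAT2 was at 46.9, 47.3 and 48.5 CPM in controls and 36.8 and 22.1 CPM in KO libraries of experiment 1, and at 22.7, 23.4 and 22.8 CPM in controls and 16.4, 22.6 and 29.0 CPM in clones 2, 3 and 5 of experiment 2. IRF9 was at 9.34, 8.48 and 7.35 CPM against 5.96 and 4.36 CPM in experiment 1, and at 6.84, 6.87 and 8.42 CPM against 4.67, 5.49 and 8.93 CPM in experiment 2. For both genes clone 5 was above the controls of its experiment and the other 4 KO libraries were below theirs.

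PARP9 and DTX3L encode a mono-ADP-ribosyltransferase and the E3 ubiquitin ligase that binds it, and the genes lie head to head on chromosome 3. They share 139 exonic bases on opposite strands, so part of their reads cannot be told apart. PARP9 (chr3:122527924-122564577) was at 14.6, 14.5 and 14.7 CPM in controls and 2.66 and 1.92 CPM in KO libraries of experiment 1, and at 11.1, 12.3 and 12.9 CPM against 1.44, 0.898 and 6.72 CPM in clones 2, 3 and 5 of experiment 2. DTX3L (chr3:122564338-122575203) was at 17.1, 16.8 and 21.5 CPM in controls and 2.49 and 4.19 CPM in KO libraries of experiment 1, and at 9.46, 9.95 and 12 CPM against 1.39, 1.11 and 5.46 CPM in experiment 2. Neither gene had a KO library at the level of a control, and clone 5 lay between the other KO clones and the controls. The log2FC values were −2.23 for PARP9 (SE 0.47, adjusted p = 0.010) and −2.14 for DTX3L (SE 0.41, adjusted p = 0.0064).

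PARP10 and PARP12 are mono-ADP-ribosyltransferases with antiviral activity. PARP10 was at 11, 13.7 and 13.9 CPM in controls and 0.463 and 0.283 CPM in KO libraries of experiment 1, and at 5.93, 3.79 and 3.68 CPM against 0.50, 0.423 and 2.0 CPM in experiment 2. Its groups did not overlap and its log2FC was −3.25 (SE 0.66, adjusted p = 0.0091). PARP10 overlaps exons of GRINA and SPATC1 on the opposite strand. PARP12 (chr7:140023749-140062951) was at 10.1, 9.81 and 12.7 CPM against 2.26 and 4.81 CPM in experiment 1, and at 7.18, 7.70 and 9.09 CPM against 0.667, 0.739 and 3.62 CPM in experiment 2, again with no overlap. Its log2FC was −1.91 (SE 0.45, adjusted p = 0.017), and it lost the call with the WT clone as the only control (adjusted p = 0.068). PARP14, the last gene of the group, was at 33.3, 31.7 and 39.1 CPM against 4.63 and 4.07 CPM in experiment 1. In experiment 2 it was at 17.9, 21.3 and 16.1 CPM in controls and 3.83, 1.21 and 20.6 CPM in clones 2, 3 and 5, so that clone 5 was at the level of the controls, and its log2FC of −1.83 did not pass the test (adjusted p = 0.096).

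PSMB8, the immunoproteasome subunit that replaces a catalytic subunit of the constitutive proteasome, showed the same split between clones. It was at 3.68, 4.13 and 7.88 CPM in controls and 0.405 and 0.0566 CPM in KO libraries of experiment 1. In experiment 2 it was at 0.912, 1.60 and 4.01 CPM in controls and at 0.0556, 0.0528 and 3.36 CPM in clones 2, 3 and 5. Clones 2 and 3 were below the controls and clone 5 was among them, and the log2FC of −2.13 did not pass the test (adjusted p = 0.28). Without clone 5 it was −4.67 (adjusted p = 0.00051). PSMB9, its neighbour in the MHC region, had at most 2 reads in any STAG2 KO library and was not tested. PSMB10 had a log2FC of −0.26. In the ISG15 system, ISG15 itself, the ubiquitin-like modifier, was at 11.1, 11.3 and 12.5 CPM in controls and 16.7 and 16.8 CPM in KO libraries of experiment 1, but at 18.8, 16.6 and 18 CPM against 11.9, 13.4 and 15.1 CPM in experiment 2. The direction of ISG15 thus differed between experiments, and its log2FC over both was 0.06. UBE2L6, the E2 enzyme of ISG15, was not called (log2FC −1.06, adjusted p = 0.22).

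Among the effectors, IFITM3, IFITM1, LGALS3BP and TRIM21 fell. IFITM1 and IFITM3 encode membrane proteins that hinder the entry of enveloped viruses, and reads may be shared with the similar IFITM2. IFITM3 (chr11:319676-329475) was at 70.1, 66.3 and 66.0 CPM in controls and 23.5 and 30.9 CPM in KO libraries of experiment 1, and at 87.9, 74.2 and 64.8 CPM against 14.1, 12.7 and 13.4 CPM in clones 2, 3 and 5 of experiment 2. Here clone 5 did not differ from the other clones, and IFITM3 had the lowest adjusted p of the members (log2FC −1.91, SE 0.21, adjusted p = 0.00026). It was called in all 21 alternative settings. IFITM1 (chr11:310041-315272) was at 48.2, 45.7 and 20.9 CPM in controls and 8.11 and 7.75 CPM in KO libraries of experiment 1, and at 19.1, 17.3 and 12.7 CPM against 2.50, 4.70 and 11.4 CPM in experiment 2. The parental line was the lowest control in both experiments, and KO and controls of IFITM1 did not overlap (log2FC −1.73, SE 0.40, adjusted p = 0.017). This call was lost without the KO library of column 5 or of column 24 of experiment 1, each time narrowly (lowest adjusted p = 0.0502).

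LGALS3BP, a secreted glycoprotein, had the highest level per length of all members, 91.3 CPM per kilobase of exon in the controls of experiments 1 and 2, followed by IFITM3 (25.2), ISG15 (17) and IFITM1 (16.4). It was at 354, 351 and 327 CPM in controls and 154 and 148 CPM in KO libraries of experiment 1, and at 312, 247 and 284 CPM against 37.5, 63.9 and 152 CPM in experiment 2. All KO libraries of LGALS3BP (chr17:78971238-78979947) lay below the controls, with a log2FC of −1.43 (SE 0.30, adjusted p = 0.010). TRIM21, a cytosolic antibody receptor with E3 ligase activity, was at 4.67, 5.51 and 6.83 CPM against 1.68 and 1.75 CPM in experiment 1, and at 3.08, 3.08 and 3.96 CPM against 0.333, 0.581 and 1.21 CPM in experiment 2. TRIM21 (chr11:4384897-4393702) fell with no overlap, by 1.95 on the log2 scale (SE 0.33, adjusted p = 0.0034). IFIT3, which binds viral RNA together with IFIT1, was at 6.07, 5.72 and 6.41 CPM against 4.75 and 3.51 CPM in experiment 1 and at 6.84, 6.16 and 5.63 CPM against 4.5, 2.59 and 3.99 CPM in experiment 2. Its groups did not overlap either, but its log2FC of −0.62 was not called (adjusted p = 0.077). PARP10, IFITM1, IFIT3, IRF7, PSMB8, TRIM21 and DTX3L belong to a STAG2 signature that the study chose in part on these samples, so their direction is not independent evidence.

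**Figure D2:**
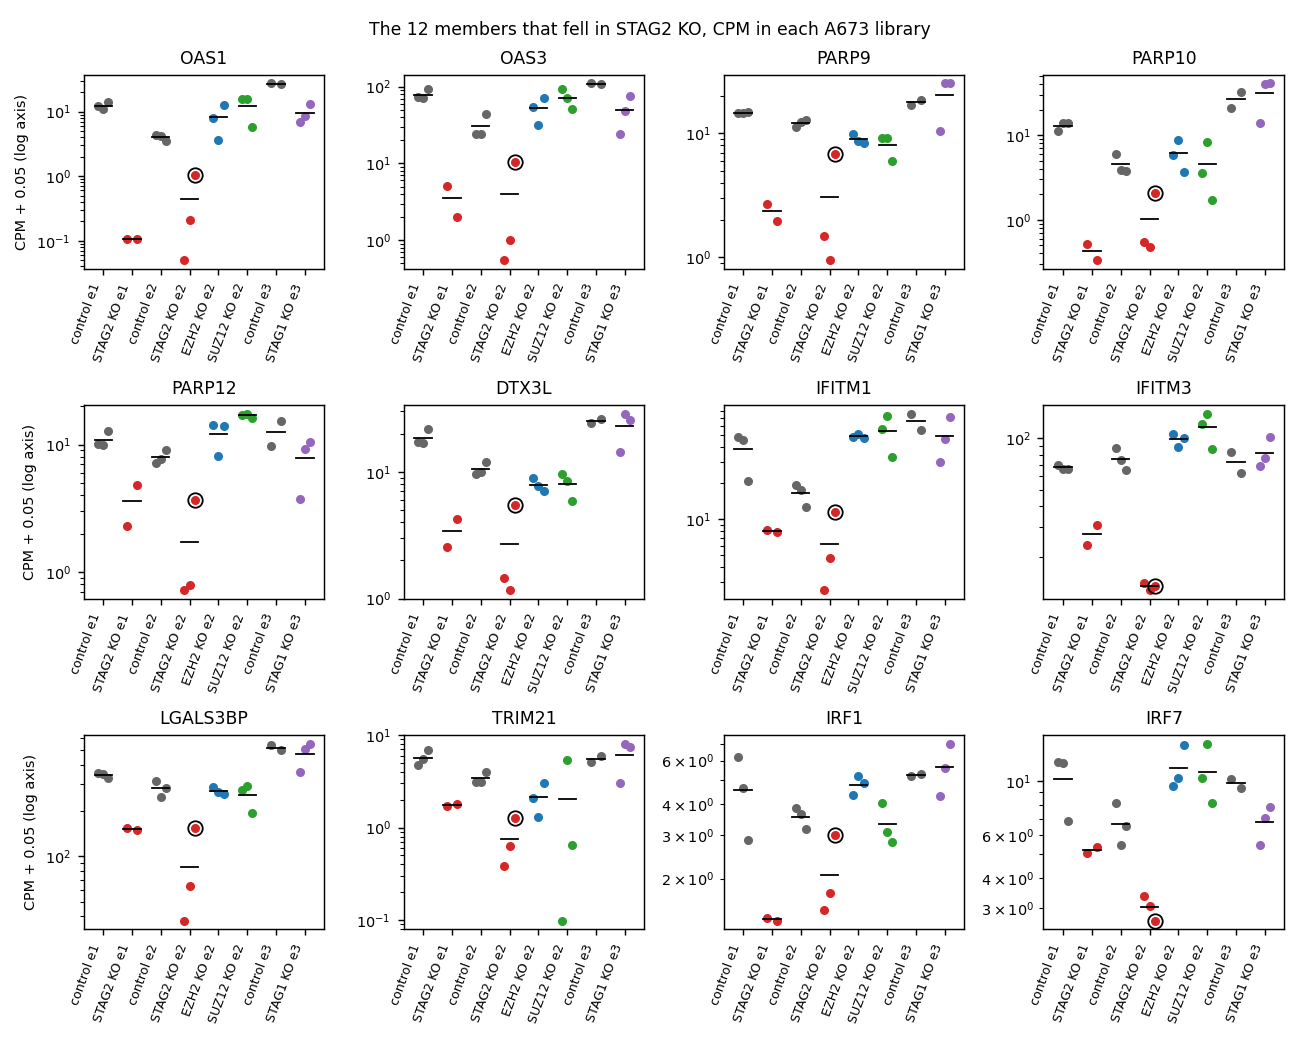
CPM + 0.05 (log axis) of the 12 ISGs that fell in STAG2 KO cells, as a point per A673 library, with a bar at the mean of each group and e1 to e3 for the experiment. Clone 5 of STAG2 KO in experiment 2 (black circle) lies above the other 2 clones of that experiment for OAS1, OAS3 and PARP9 but not for IFITM3 or IRF7, where all KO libraries are below all controls.

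The 28 members that were not called ranged from −2.13 (PSMB8) to 1.91 (GBP2) in log2FC. Several of them were low in 4 KO libraries and high in clone 5. BST2, which tethers budding virions, was at 0.811 and 0.113 CPM in KO libraries of experiment 1 and 0.333 and 0.687 CPM in clones 2 and 3, but at 13.5 CPM in clone 5, above the highest of the 6 controls (7.88 CPM). IFI44L was at 24.8 CPM in clone 5 and at 1.41 to 5.27 CPM in the other KO libraries and the controls. Relative to the mean control of its experiment, the median log2 difference of the 40 members was −0.08 in clone 5, and −1.07, −0.94, −1.0 and −1.26 in clone 3, clone 2 and the KO libraries of columns 5 and 24. IFIT5, PLSCR1 and EIF2AK2, shown above with their ISRE cores, had log2FC values of −0.10, 0.28 and −0.00 and were not called, although PLSCR1 was called higher without clone 5 (0.34). The 14 members that were not tested had too few reads (ISG20, MX1, MX2, OAS2, OASL, PSMB9, IFIH1, HERC5, HERC6, XAF1, SAMD9L, EPSTI1, TRIM22 and RTP4), and MX2, OAS2, OASL and RTP4 did not exceed 3 counts in any STAG2 KO or control library. In experiment 1, MX1 was at least 4.26-fold lower and XAF1 at least 3.16-fold lower in KO cells.

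Of 26 other genes of the pathway, 20 were tested in STAG2 KO cells. Among these, 4 rose, namely DDX58 (the sensor RIG-I, log2FC 0.91), JAK2 (0.85), TRIM25 (0.73) and IFNGR1 (0.45), and 2 fell, IRF2 (−1.18) and JAK1 (−0.46). Their median was 0.05. The interferon genes listed had almost no reads, with at most 7 counts of IFNB1, 3 of IFNE and 0 of IFNL1 in any of the 26 libraries. Among markers of other cell types, the fibroblast genes DCN and LUM summed to 0.0528 to 2.61 CPM in STAG2 KO libraries and to 3.68 to 16.1 CPM in their controls, and their part in the result was not tested. Leukocyte markers (PTPRC, CD3E, CD14 and LYZ) summed to at most 0.613 CPM in the same controls and 0.50 CPM in STAG2 KO libraries, with CD3E at 0 in each of these libraries. Endothelial markers (PECAM1, CDH5 and VWF) summed to at most 1.22 CPM in these controls and 0.893 CPM in STAG2 KO libraries.

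**Figure D3:**
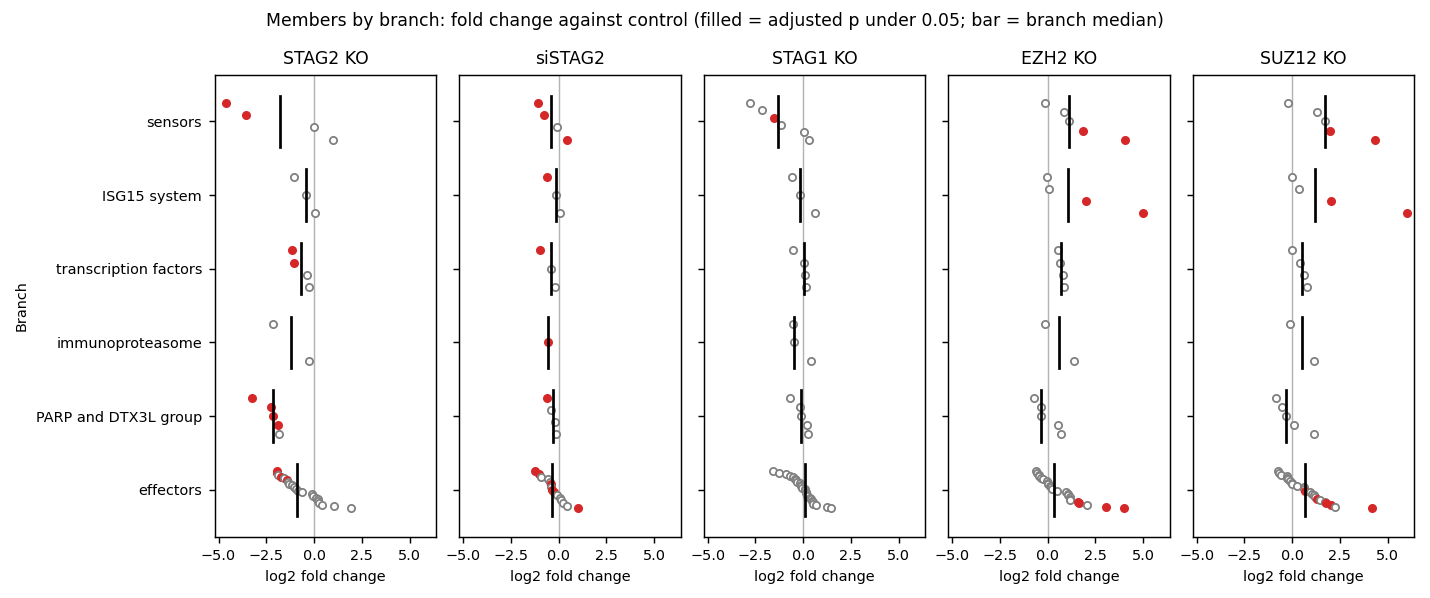
Log2 fold change against control (horizontal axis) of each tested ISG, by branch (rows), in 5 comparisons (panels). Filled red points passed an adjusted p under 0.05, open points did not, and black bars are branch medians. Red points lie left of 0 in STAG2 KO and, apart from IFI16 and IFI44L, in siSTAG2, and right of 0 in EZH2 KO and SUZ12 KO.

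In the knockdown, which needs no cloning of cells, 30 members had a mean of at least 10 normalised reads and were tested. Of these, 11 fell and 2 rose, beside 11% of all genes tested that fell and 9.54% that rose (limma on log2(value + 1), Benjamini-Hochberg adjusted p under 0.05 over 12060 genes). The median log2FC of the members was −0.37, and that of all genes 0.01. The lowest adjusted p was that of IFITM2, at 209, 242 and 233 normalised reads in siC and 102, 117 and 110 in siSTAG2 (log2FC −1.05, adjusted p = 8.3e-08). The samples of the arms were far apart for this gene. OAS3 was at 304, 271 and 292 normalised reads in siC and 175, 171 and 168 in siSTAG2, a log2FC of −0.75 (adjusted p = 1.5e-06). OAS1 was at 60.05, 53.1 and 52.2 against 34.3, 20.0 and 23.2 normalised reads, a log2FC of −1.10 (adjusted p = 0.00076). Neither synthetase had overlapping arms.

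PARP14 was at 340, 310 and 390 normalised reads in siC and 236, 223 and 222 in siSTAG2 (log2FC −0.60, adjusted p = 3.1e-05). IFITM3 was at 2352, 2082 and 2313 against 1807, 1761 and 1679 (log2FC −0.36, adjusted p = 7.9e-05), and IFI6, a mitochondrial and endoplasmic reticulum protein, at 341, 348 and 362 against 286, 270 and 243 (log2FC −0.40, adjusted p = 0.0017). These falls were small, but each siSTAG2 sample lay below each siC sample. IRF1 was the transcription factor that fell, at 45.7, 44.8 and 37.4 normalised reads in siC and 26.0, 31.1 and 11.6 in siSTAG2 (log2FC −0.97, adjusted p = 0.014), with no overlap, although the call was lost without siC sample 3 or siSTAG2 sample 3 (adjusted p 0.055 and 0.12). LGALS3BP, UBE2L6, PSMB8 and BST2 also fell, with log2FC values of −0.25, −0.62, −0.57 and −1.23. BST2 had an adjusted p of 0.0498 and lost its call in 5 of 11 alternatives, among them the removal of siC sample 1, siC sample 3 or siSTAG2 sample 1 (highest adjusted p = 0.30). PSMB8 lost its call in 4 of 12, the removal of samples 1 and 3 of either arm in turn (up to 0.22), and UBE2L6 lost its call without siC sample 2 (0.0507).

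The members that rose in the knockdown were IFI44L, at 31.5, 22.9 and 27.6 normalised reads in siC and 56.6, 58.8 and 52.2 in siSTAG2 (log2FC 1.02, adjusted p = 0.00077), and IFI16, at 285, 276 and 220 against 343, 362 and 357 (log2FC 0.45, adjusted p = 0.0011). In both cases each siSTAG2 sample was above each siC sample. Of the 12 members that fell in the KO clones, 9 were tested in the knockdown, and all 9 had a negative log2FC there. Of these 9, IFITM3, IRF1, LGALS3BP, OAS1 and OAS3 passed the test in both. They are 41.7% of all 12 members that fell in the clones, the untested ones included, and 45.5% of those that fell in the knockdown. The same shares were not counted for all genes that fell in the clones, so these counts do not set the members apart from other genes. IFITM1, PARP10 and TRIM21 had too few reads to be tested in the knockdown. Of the other pathway genes, 17 were tested, IRF3 rose (0.35), and IRF2 (−0.66), JAK1 (−0.46), STING1 (−0.33) and MAVS (−0.30) fell. The fibroblast markers moved here too, with DCN at 32.4, 33.3 and 38.4 normalised reads in siC and 5.56, 6.66 and 2.9 in siSTAG2, and LUM at 46.7, 47.9 and 34.4 against 3.71, 2.22 and 3.86. Their part in the result was not tested. The leukocyte markers summed to at most 2.95 normalised reads in siC and 1.85 in siSTAG2, and the endothelial markers to at most 3.81 and 0.

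**Figure D4:**
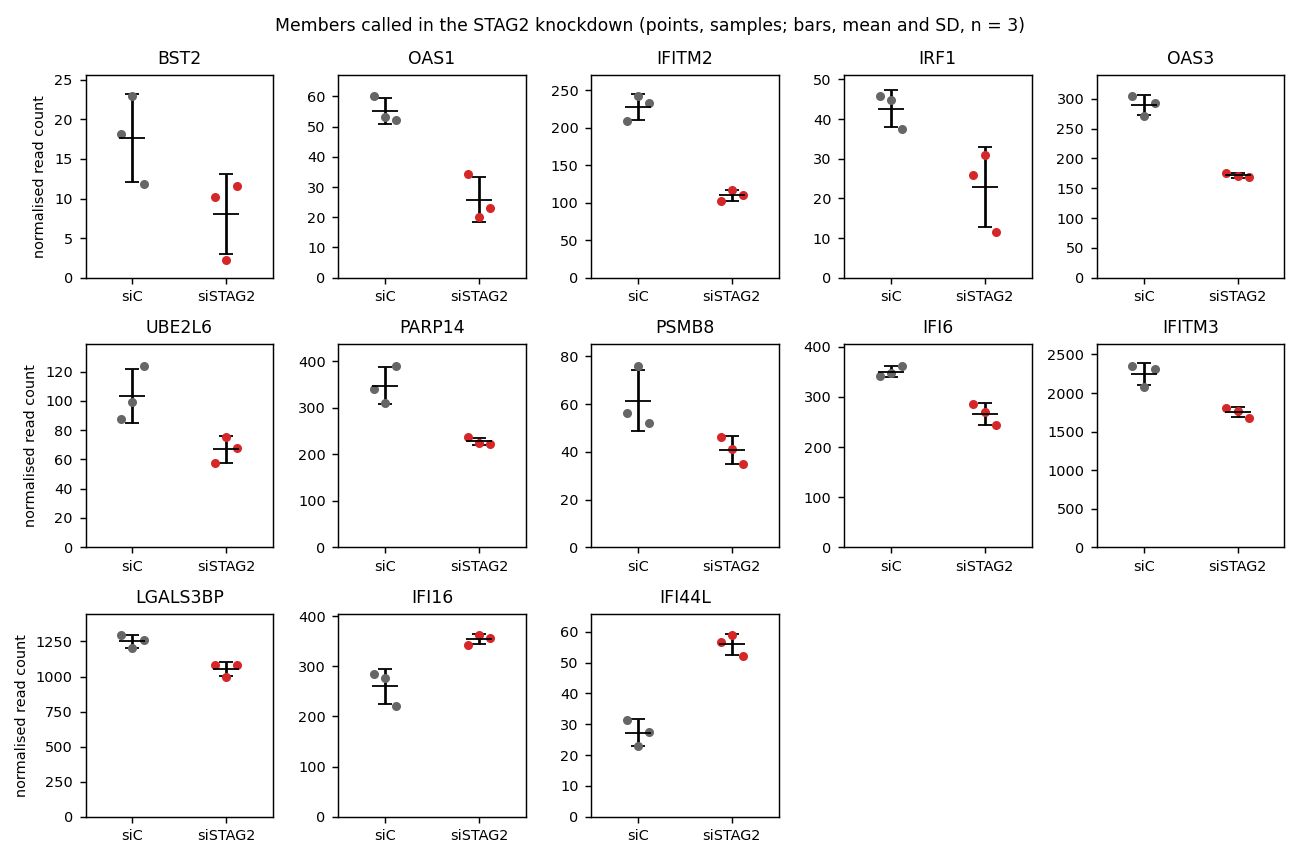
Normalised reads (vertical axis from 0) of the 13 ISGs called in the STAG2 knockdown, with a point per sample of siC (grey) and siSTAG2 (red), the mean as a line and the SD as a bar (n = 3 per arm). IFI16 and IFI44L are higher in siSTAG2 and the other 11 genes lower, and the arms of BST2 nearly touch.

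EZH2 and SUZ12 are needed for trimethylation of histone H3 (H3K27me3), a mark of repressed genes, and the KO clones of these subunits were compared with the controls of experiment 2 that also served STAG2 KO. In EZH2 KO cells, 8 of 44 tested members rose and none fell, beside 12% of all genes tested that rose and 3.69% that fell. In SUZ12 KO cells, 9 of 44 rose and none fell, beside 14.7% and 5.87%. At an unadjusted p under 0.05, 14 and 16 of the 44 members passed, beside 30.2% and 34.2% of all genes. DESeq2 called 10 members in each, none of them lower, and its share of all genes was not counted. The median log2FC of the members was 0.58 in EZH2 KO and 0.63 in SUZ12 KO, and that of all genes 0.04 and 0.01. HERC5 had at most 2 counts in each control. Even at its lower bound it lies above both medians, so setting it there could not move them.

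IFI16 had the lowest adjusted p in both. It was at 38.0, 43.4 and 51.5 CPM in controls, 147, 136 and 170 CPM in EZH2 KO clones 1 to 3 and 153, 163 and 179 CPM in SUZ12 KO clones 1 to 3. Every PRC2 KO clone was above every control (log2FC 1.85, SE 0.30, adjusted p = 0.0022 for EZH2, and 1.97, 0.30 and 0.0011 for SUZ12). IFIH1 rose from 0.228, 0.192 and 0.558 CPM in controls to 6.51, 4.97 and 4.20 CPM in EZH2 KO and 4.44, 10.3 and 4.97 CPM in SUZ12 KO (log2FC 4.05 and 4.36, adjusted p = 0.0047 and 0.0023). HERC5, the E3 ligase for ISG15, was at 0.0570, 0.128 and 0.0558 CPM in controls, 1.45, 2.89 and 3.48 CPM in EZH2 KO and 5.08, 6.81 and 3.84 CPM in SUZ12 KO. Against the floor of 3 reads per control library it was at least 13.5-fold higher in EZH2 KO (adjusted p = 0.0052) and at least 27.2-fold higher in SUZ12 KO (adjusted p = 0.0014).

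GBP2, an interferon-induced GTPase that overlaps GBP7 on the same strand, was at 0.684, 0.321 and 1.45 CPM in controls, 14, 7.32 and 15.8 CPM in EZH2 KO and 12.1, 17.8 and 13.2 CPM in SUZ12 KO (log2FC 3.98 and 4.18, adjusted p = 0.013 and 0.0078). SP110, a nuclear body protein, was at 7.18, 5.97 and 6.24 CPM in controls, 17, 21.7 and 15.2 CPM in EZH2 KO and 11.7, 16.7 and 17.7 CPM in SUZ12 KO (1.56 and 1.32, adjusted p = 0.0062 and 0.011). SAMD9, an antiviral factor of the cytoplasm, was at 0.342, 0.898 and 0.279 CPM in controls, 4.10, 5.46 and 2.29 CPM in EZH2 KO and 1.07, 2.31 and 2.43 CPM in SUZ12 KO (3.05 and 2.01, adjusted p = 0.0085 and 0.043). For these genes too, no PRC2 KO clone was at or below a control.

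UBE2L6 was at 6.38, 6.48 and 7.14 CPM in controls, 22.7, 20.1 and 33.8 CPM in EZH2 KO and 26.8, 31.9 and 20.4 CPM in SUZ12 KO (log2FC 2.02 and 2.05, adjusted p = 0.022 and 0.016). IFITM1 was at 48.3, 50.8 and 47.3 CPM in EZH2 KO and 56.2, 72.5 and 32.8 CPM in SUZ12 KO, above the 19.1, 17.3 and 12.7 CPM of the controls (1.66 and 1.79, adjusted p = 0.025 and 0.014). IFITM3 was called in SUZ12 KO, at 122, 140 and 87.1 CPM, where clone 3 lay within the controls (87.9, 74.2 and 64.8 CPM), with a log2FC of 0.69 (adjusted p = 0.013). Several of these calls did not hold when 1 library was left out. In EZH2 KO, IFITM1 lost its call without any 1 of the 6 libraries (adjusted p 0.051 to 0.099), UBE2L6 without either WT clone library, the parental library or EZH2 KO clone 3 (0.067 to 0.088), both also with the WT clone as the only control, GBP2 without either WT clone library (0.067) and SAMD9 without WT clone library 1 (0.053). In SUZ12 KO, the call of SAMD9 was lost without WT clone library 1, the parental library or SUZ12 KO clone 2 or 3 (up to 0.15), those of IFITM1 and IFITM3 without WT clone library 2, the parental library or SUZ12 KO clone 2 (up to 0.061 and 0.066), all 3 also with the WT clone as the only control, that of UBE2L6 without either WT clone library or SUZ12 KO clone 2 (up to 0.065), and that of SP110 without WT clone library 2 (0.053). IFI16, IFIH1 and HERC5 kept their calls in both comparisons in every alternative run.

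Of the members that fell in STAG2 KO cells, all but IFITM1 and IFITM3 were called in neither PRC2 KO group. All SUZ12 KO clones still lay above all controls for OAS1, OAS3, PARP12 and IRF7, and below them for PARP9. All EZH2 KO clones lay above all controls for IRF1 and IRF7, and below them for PARP9, DTX3L and TRIM21. PARP10 and LGALS3BP overlapped the controls in both groups. The share of all genes that lay apart in this way was not counted. Endothelial markers summed to 2.08 to 3.33 CPM in EZH2 KO and 2.59 to 6.4 CPM in SUZ12 KO clones, beside 0.798 to 1.22 CPM in controls, and their part in these rises was not tested. Among the other pathway genes, 7 of 22 rose in EZH2 KO (IFNLR1 2.92, TLR3 2.04, IKBKE 1.27, STING1 1.20, IL10RB 0.86, IFNGR1 0.86 and TRIM25 0.79 in log2FC) and 5 of 22 in SUZ12 KO (IFNLR1 3.26, TLR3 1.98, TRIM25 1.16, STING1 1.10 and IL10RB 0.74). No pathway gene fell in either.

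The PRC2 KO groups were also compared with each other and with the STAG2 KO clones of experiment 2, without the controls. Between EZH2 KO and SUZ12 KO, 0 of 44 members passed edgeR's test, 0 had an unadjusted p under 0.05 (4.16% of all genes did) and DESeq2 called 0, beside 0.00661% of all genes that were lower and 0% that were higher in EZH2 KO. The log2 differences of the members ran from −1.60 to 1.04. In STAG2 KO, 18 of 44 members were lower than in EZH2 KO and none higher, beside 12.4% of all genes that were lower and 8.04% that were higher. Against SUZ12 KO, 18 were lower and none higher, beside 14.5% and 11.2%. Without clone 5, 34 of 46 members were lower than in EZH2 KO and none higher, beside 20.6% and 13.6% of all genes. In the same setting 32 were lower than in SUZ12 KO and 1 higher, beside 23.4% and 16.7%. Of all removals of 1 library, that of clone 5 gave the most calls. The range of members called was 14 to 34 against EZH2 KO and 12 to 33 against SUZ12 KO.

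IFITM3 had the lowest adjusted p of both contrasts, with a log2 difference of −2.90 from EZH2 KO (adjusted p = 3.5e-06) and −3.13 from SUZ12 KO (1.9e-06). IFIH1 differed by −5.79 (adjusted p = 0.0011) and −6.11 (0.00067), and IFITM1 by −2.99 (0.0012) and −3.11 (0.00079). IFITM2 was at 0.475, 2.15 and 1.06 CPM in STAG2 KO clones 3, 5 and 2, at 13.0, 18.4 and 8.83 CPM in EZH2 KO and at 21.5, 11.8 and 6.64 CPM in SUZ12 KO, with log2 differences of −3.46 (0.0027) and −3.43 (0.0023). IRF7 was at 9.45, 10.2 and 14 CPM in EZH2 KO and 10.2, 14.2 and 8.05 CPM in SUZ12 KO and differed by −1.93 (0.00095) and −1.86 (0.00093). PARP12 differed by −2.85 (0.0043) and −3.32 (0.0015), OAS1 by −4.36 (0.0057) and −4.95 (0.0024), and SP110 by −1.83 (0.0022) and −1.58 (0.0038). For each of these 8 genes the STAG2 KO clones were below all PRC2 KO clones. The genes were named for their low adjusted p in these same contrasts, so such separation follows largely from their selection. The share of all genes that lay apart in this way was not counted here either.

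In STAG1 KO cells, 47 members were tested, 1 fell and none rose, beside 2.50% of all genes tested that fell and 2.77% that rose. The median of the members was −0.03 and that of all genes −0.00. At an unadjusted p under 0.05 (edgeR), 8 of the 47 members passed, beside 24.9% of all genes. The 6 tested sensors had a median of −1.33, with 4 lower and 2 higher, and 4 of the 6 passed at this unadjusted threshold. The member that fell was OAS1, at 27.3 and 26.5 CPM in the WT clone and the parental line and at 6.86, 8.40 and 13.1 CPM in the KO libraries of columns 1, 5 and 7. All KO libraries were below both controls, and the log2FC was −1.51 (SE 0.27, adjusted p = 0.039), but the call was lost without either control (adjusted p = 0.28 without the parental line, 0.20 without the WT clone) or without column 5 (0.079). OAS3 was at 110 and 109 CPM in controls and 23.9, 48.2 and 75.3 CPM in KO libraries and was not called. The library of column 1, which had kept STAG1 transcripts, had the lowest member levels, with a median log2 difference of −0.51 from controls beside 0.08 and 0.27 in columns 5 and 7. Without it, 3 members were called, 1 lower and 2 higher, and the share of all genes in that fit was not counted. Of 21 other pathway genes tested, those that rose included IKBKE (1.19) and TBK1 (0.55), and none fell.

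Whether KO of STAG2 and KO of STAG1 differed in effect was tested directly over experiments 1 to 3. Of 46 members, 3 had a more negative effect in STAG2 KO and none a more positive one, beside 3.75% and 2.36% of all genes tested. IFITM3 was at 83.2 and 62.9 CPM in the controls of experiment 3 and 69.0, 76.5 and 102 CPM in STAG1 KO, and its effects differed by −2.12 on the log2 scale (SE 0.37, adjusted p = 0.0038). PARP10 was at 20.6 and 32.0 CPM in these controls and 13.7, 39.9 and 40.7 CPM in STAG1 KO (difference −3.53, adjusted p = 0.042), and TRIM21 at 5.06 and 5.91 CPM against 2.99, 8.01 and 7.33 CPM (−2.15, adjusted p = 0.042). For all 3 genes STAG1 KO overlapped its controls. Without clone 5 of STAG2 KO, 19 members had a more negative effect, beside 8.63% of all genes in the same fit. Of all removals of 1 library, this one gave the most calls. The range was 0 to 19.

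The control libraries themselves differed in a few members. Of 45 tested between the WT clone and the parental line over the 3 experiments, IFITM2 (log2 difference 1.09, adjusted p = 0.015) and IFITM1 (0.73, 0.026) were higher in the WT clone and PSMB8 (−1.19, 0.020) and GBP1 (−1.12, 0.024) lower, beside 1.76% of all genes that were higher and 0.960% that were lower. Each of these calls was lost when 1 of several control libraries was left out, among them either WT clone library of experiment 2 (adjusted p up to 0.11).

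The isogenic pairs have 1 library per arm and allow no test. The intervals given cover counting error only. In SK-N-MC cells, 52 members had at least 10 counts in the pair, of which 9 were more than 2-fold higher and 7 more than 2-fold lower without STAG2, beside 10.4% of all genes that were higher and 11.2% that were lower. The median log2 ratio was −0.22. MX1, a GTPase that blocks viral replication, had 25 counts with STAG2 and 201 without (0.785 and 6.89 CPM), 8.77-fold more (95% interval 5.77 to 13.9). BST2, at 284 counts with STAG2 and 956 without, was 3.67-fold higher (3.21 to 4.21) and GBP2, at 55 and 197 counts, 3.91-fold higher (2.89 to 5.37). IFI44L went from 831 to 115 counts (26.1 to 3.94 CPM) and PARP10 from 444 to 102 counts (13.9 to 3.5 CPM), 6.62-fold (5.44 to 8.12) and 3.99-fold (3.21 to 5.0). PSMB8 was also past 2-fold lower, from 793 to 268 counts, while OAS1 (627 and 441 counts) and IFITM3 (4902 and 4115 counts) were not. The KO library of SK-N-MC also held more of the leukocyte marker PTPRC, at 1776 counts against 99. The other leukocyte markers were low in both arms, with CD14 at 22 against 13, LYZ at 2 against 10 and CD3E at 0 against 1. The sum of the leukocyte markers was 57.4 CPM against 3.59 CPM. Of the fibroblast markers, DCN was at 532 counts against 50 and LUM at 42 against 25. The part of these in the ISG ratios was not tested.

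In A4573 cells, 42 members had at least 10 counts in the pair, of which 27 were more than 2-fold lower without STAG2 and none higher, beside 14.1% of all genes that were lower and 7.76% that were higher. The median log2 ratio was −1.36. IRF7 had 0 counts in A4573 cells and 544 counts after restoration of STAG2 (16.6 CPM), at least 174-fold higher against a floor of 3 reads. BST2 went from 6 to 607 counts with STAG2 (97.0-fold, 95% interval 44.3 to 265) and IFITM1 from 142 to 1896 counts (12.8-fold, 10.8 to 15.3). IFIT1 had 1 count without STAG2 and 68 with it (65.2-fold, 11.3 to 2613), and HERC6, a relative of HERC5, 6 and 82 counts (13.1-fold, 5.77 to 36.8). By branch, 20 of 26 effectors, 2 of 3 sensors, 2 of 4 transcription factors (IRF7 and IRF9), 2 of 4 genes of the ISG15 system (ISG15 and HERC6), 1 of 3 genes of the PARP and DTX3L group (PARP9) and 0 of 2 immunoproteasome genes were more than 2-fold lower without STAG2. IFI16, PARP12, PARP14, PSMB8 and OAS3 were at or close to 0 in both arms. Leukocyte markers summed to 0.503 and 0.562 CPM in the arms. Since 1 clone stands for each arm, its history and the presence of STAG2 cannot be told apart.

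**Figure D5:**
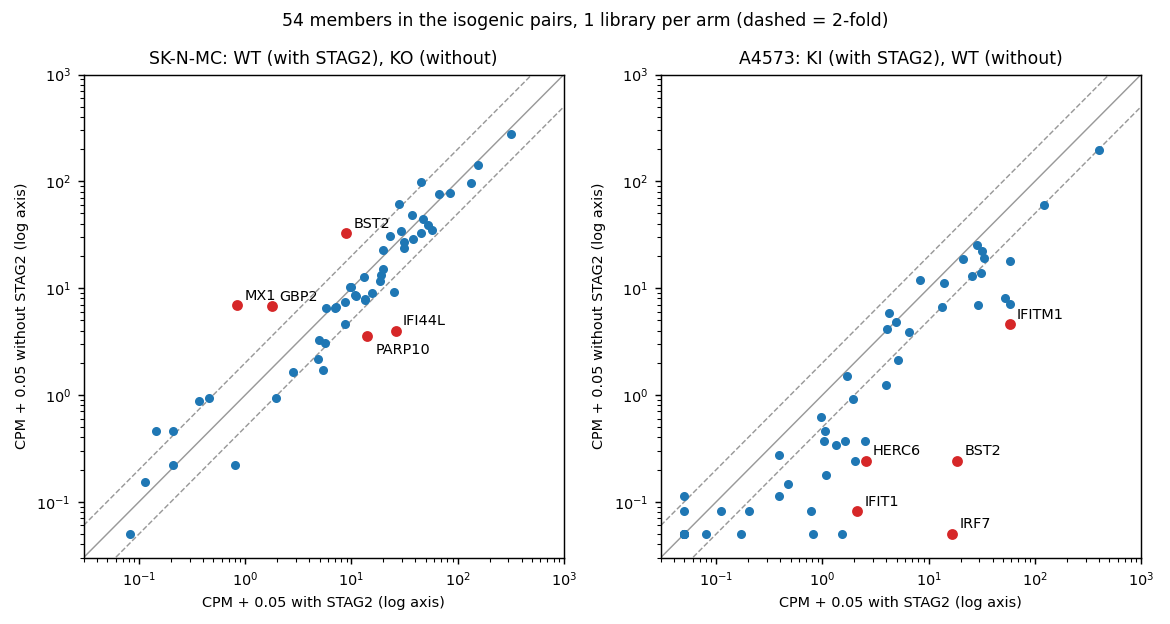
CPM + 0.05 of the 54 ISGs in SK-N-MC (left) and A4573 cells (right), each an isogenic pair, with the library that has STAG2 on the horizontal and the library without it on the vertical log axis, 1 point per gene, 1 library per arm, dashed lines at 2-fold and named genes in red. Points of SK-N-MC fall on both sides of the diagonal, while most points of A4573 lie below it and all 5 named genes below the lower dashed line, with IRF7 at 0 counts without STAG2.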

How the data were processed

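RNA of A673, SK-N-MC and A4573 cells was sequenced by the authors from non-directional oligo-dT libraries. The submitters' processing notes name TopHat2 2.0.0, Bowtie 0.12.7, SAMtools 0.1.16, FastQC, DESeq2 and the build hg38, and the counter and annotation are not given in the sources used here. For the KO clones and isogenic pairs the authors deposited whole-number counts per gene symbol, without normalization. For the knockdown they deposited a signal, counts divided by a factor per sample whose derivation is not stated, and 100% of the values were whole reads (within 0.001) once multiplied by a recovered factor.

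Groups follow the labels. The numbers 5 and 24 (experiment 1) and 1, 5 and 7 (experiment 3) head columns that could not be matched to single clones. R 4.3.3 was used. Count tables were tested with edgeR 4.0.16 (TMM, filterByExpr, quasi-likelihood test, Benjamini-Hochberg over all genes tested), with the experiment as a term where more than 1 entered and all 12 libraries of experiment 2 in 1 fit for PRC2. The knockdown values were tested with limma 3.58.1 on log2(value + 1) for genes with a mean of at least 10. For the isogenic pairs the log2 CPM ratio (prior count 2) was taken for genes whose counts summed to at least 10. A group with at most 3 counts in each library was taken as at the floor. Coordinates of genes are those of GENCODE 44 on GRCh38. The procedure was tested on simulated data. Results of an item withheld for evaluation are not reported here. Depth limits members with few reads.

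The 54 members, their branches and the other lists were chosen with earlier results of these data known. Values per sample are given for the members called in STAG2 KO, the 4 transcription factors, the 7 members in the signature of the study, up to 8 called members with the lowest adjusted p in each other comparison, and up to 5 members with the largest ratio among those with at least 50 counts in each isogenic pair. A few others (IFIH1, IFI16, PARP14, ISG15, BST2 and IFI44L in STAG2 KO, OAS3 in STAG1 KO) were named after their values were seen. Between both libraries of the WT clone in experiment 1, chi-square averaged 1.31 over 14986 genes, above the 1 that sampling gives but below the 8.82 of the pair in experiment 2, and both were kept as separate samples. Alternatives were DESeq2 1.42.0, other size factors, no filter, other controls, single experiments, other pseudocounts and minimums, recovered reads, a replicate block and the removal of each library.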

Additional observations from a re-analysis of the deposited data

Results flagged for a closer look

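KO of STAG2 and KO of STAG1 differed in effect on 3 members by a direct test (edgeR's quasi-likelihood contrast, Benjamini-Hochberg adjusted). The difference was −2.12 on the log2 scale for IFITM3 (adjusted p = 0.0038), −3.53 for PARP10 (adjusted p = 0.042) and −2.15 for TRIM21 (adjusted p = 0.042), in each case with all 5 STAG2 KO libraries below their controls and the ranges of the 3 STAG1 KO libraries and their controls overlapping. The call of IFITM3 was lost in 1 of 19 alternatives, the removal of the parental library of experiment 3 (adjusted p = 0.060), that of PARP10 in 11 (0.051 to 0.23) and that of TRIM21 in 12 (0.051 to 0.21), each by the removal of a single library.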

How the results depend on the processing

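No member that was called changed direction under any alternative run. The median of the members in STAG1 KO (−0.03) did, from −0.16 without the library of column 7 to 0.14 without that of column 1. The number of members called in STAG2 KO (12) was 22 in experiment 1 alone and 1 in experiment 2 alone. In experiment 2 without clone 5 it was 23, 22 lower and 1 higher, beside 9.07% and 10.7% of all genes. Without clone 5 and the KO library of column 24 it was 26, 24 lower and 2 higher, beside 12.6% and 12.2%. Both of these exclusions were chosen after seeing the data. The counts that follow are given without a share of all genes and show only how far the calls moved. Leaving out each library in turn gave 10 to 26, with the median of the members from −1.57 to −0.69, and in experiment 1 alone the median was −1.71. DESeq2 called 17. The WT clone libraries of experiment 1 counted as 1 gave 11. In EZH2 KO (8 called), 13 were called with only the groups compared in the fit and 4 to 7 on leaving out each library (median 0.53 to 0.68). The median in EZH2 KO was 0.72 with DESeq2, 0.56 with its size factors in edgeR, 0.67 without a filter, 0.63 with only the groups compared, 0.62 with the WT clone as the only control and 0.655 with the replicate block. In SUZ12 KO (9 called), 17 were called with only the groups compared and 14 with the replicate block, and 5 to 11 on leaving out each library. In STAG1 KO (1 called) DESeq2 called 4 and leaving out each library gave 0 to 3. Against each of EZH2 KO and SUZ12 KO, 18 members were called in STAG2 KO, all lower. Leaving out each library gave 14 to 34 and 12 to 33 members called in either direction. The difference of STAG2 and STAG1 effects (3 called) gave 7 with DESeq2 and 0 to 19 on leaving out each library, and the control comparison (4 called) gave 0 to 5. In the knockdown the median of the members (−0.37) was −0.27 with a minimum mean of 1, −0.25 with a minimum of 50, and −0.37 to −0.28 on leaving out each sample. The cause was not tested, apart from the smaller numbers of samples or other genes tested that the alternatives bring by construction. Samples with the same number did not deviate together in every pair (correlations 0.0257, 0.0372 and 0.00402 in the knockdown, and −0.14, 0.39 and 0.35 between EZH2 and SUZ12 KO), so the numbers were not taken to pair samples, and not every sample correlated best with its own number. With the replicate block, 11 members were called in EZH2 KO and 13 in the knockdown, and in SUZ12 KO SAMD9 lost its call (adjusted p = 0.054). Members with at most 10 reads per library, such as MX1, IFIH1 and PSMB9 in the A673 controls of experiment 2, are limited by depth.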
